A study of Mus musculus with 8 samples.

Results

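The Hox genes, with the Meis and Pbx genes whose proteins bind DNA beside them, were followed in hematopoietic stem cells (HSCs) of young and old mice. Members were every row of the gene table whose symbol was that of a numbered gene of the Hoxa, Hoxb, Hoxc or Hoxd cluster or of the numbered Meis or Pbx genes. They came to 46 of 38172 genes, namely 11 Hoxa, 10 Hoxb, 9 Hoxc, 9 Hoxd, 3 Meis and 4 Pbx genes. The rule itself uses gene names and no measured value, but the members and all gene lists were chosen with earlier results of these data known.

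The study sequenced polyA-selected RNA of HSCs sorted fresh from the bone marrow of wild-type C57BL/6 mice aged 4 months (young) or 24 months (old). All samples were sorted by the same scheme, SP-KSL-CD150+, in which SP is the dye-excluding side population and KSL is the common shorthand for cells that carry Kit and Sca-1 and lack lineage markers. Each age had 2 biological replicates, numbered 13 and 14, and each replicate had 2 technical libraries, which were averaged here. How many animals each replicate pooled, and whether its cells came from separate animals, is not given in the sources used here, so a p-value here speaks of the spread among these 4 samples and not of animals.

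Hox genes encode homeodomain transcription factors that lie in 4 clusters, and within a cluster the gene number falls from the 5′ to the 3′ end. Pbx and Meis proteins are homeodomain factors of the TALE class. Pbx proteins bind DNA together with Hox proteins, and Meis proteins join Pbx and the Hox proteins of the 5′ groups. In blood, genes of the HoxA and HoxB clusters are active in stem and early progenitor cells and are shut down as cells mature, Hoxb4 is known for expanding HSCs when it is overexpressed, and Hoxa9 with Meis1 is a well-known driver of leukemia.

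The clusters also carry microRNA genes of the miR-196 and miR-10 families, whose targets include Hox mRNAs. Their mature sequences are shown, as RefSeq gives them on GRCm38.p6, because the Hoxb8 message, which had the largest fold change among the members, is a classic target of miR-196a. Capitals mark the seed, bases 2 to 8, which is shared within each family.
miR-196a-5p: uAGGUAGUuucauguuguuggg
miR-196b-5p: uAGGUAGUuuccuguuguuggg
miR-10a-5p: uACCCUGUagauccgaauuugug
miR-10b-5p: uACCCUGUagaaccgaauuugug

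The best match to miR-196a-5p in the 3′ untranslated region of any member lay in Hoxb8, at chr11:96284888-96284909 on the plus strand of GRCm38, in a GENCODE M21 transcript. Capitals mark the bases that would form Watson-Crick pairs with the microRNA, 21 of 22, and the single lower-case base faces it as a G:U pair. The next best site, in Hoxd8, had 15 such pairs.
Hoxb8 site: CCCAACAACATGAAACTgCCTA

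Because its single G:U pair falls in the seed, Hoxb8 holds no exact copy of the complement to the miR-196 seed, actacct. That complement occurred in the 3′ untranslated regions of 11 of 46 members (among them Hoxa4, Hoxa5, Hoxa7, Hoxa9, Hoxb6, Hoxb7 and Pbx3) and of 6.37% of 21685 genes. The complement of the miR-10 seed, acagggt, occurred in 5 members (among them Hoxa3 and Hoxb3) and in 12.8% of genes. Mature microRNAs were not measured in these libraries. The rows of the microRNA models themselves were at or near 0, with replicate means of at most 0.5 for Mir196a-1, 0 for Mir196a-2, Mir10a and Mir10b, and between 0 and 4.5 for Mir196b, whose model partly overlaps the longer model HAG_032762 on the other strand.

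Of the 46 members, 27 had at least 10 scaled reads in at least 2 replicates and entered the test. These were 9 Hoxa genes, 8 Hoxb genes (Hoxb2 to Hoxb9), 3 Hoxc genes (Hoxc4, Hoxc5 and Hoxc6), all 3 Meis genes and all 4 Pbx genes. The other 19 were all Hox genes, never exceeded 10 scaled reads in any library, and 8 of them were at 0 in every library. Scaled reads are the reads of a gene multiplied by a factor for each library. FPKM is the authors' length-scaled value, which keeps 1 ratio to the scaled reads per gene in all libraries. The length used is not given in the sources used here and is not the span of the gene model. FPKM is used wherever genes are compared with each other.

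3 tested members rose with age and none fell by limma's moderated test, with Benjamini-Hochberg adjusted p under 0.05 over 18318 genes. The 3 were Hoxb8, Hoxb9 and Pbx3. Of all genes tested, 2.01% were called higher and 0.54% lower by the same rule. At an unadjusted p under 0.05, 12 members were higher and 0 lower, against 1643 genes (8.97%) higher and 930 lower among all tested. Of the 27, 14 had both old replicates above both young ones and 3 had both below. Across all genes tested these shares were 24.7% and 17.4%. The median log2 fold change was 0.26 over the tested members and 0.04 over all genes tested. Bulk RNA cannot tell a change in the number of cells that express a gene from a change in RNA per cell.

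The HoxB cluster held 2 of the 3 calls. It lies on the plus strand of chromosome 11, where its members span positions 96055675 to 96229567 of mm9, and its 8 tested genes all had fitted log2 fold changes above 0 (median 0.96). Hoxb8, a gene known for holding myeloid progenitors in an undifferentiated state when it is overexpressed, had 119.5 (replicate 13) and 100.5 (replicate 14) scaled reads at 4 months, against 671.5 and 776 at 24 months. Both old replicates lay far above both young ones. Its mean went from 110 ± 13.4 to 724 ± 73.9 (SD, n = 2 per age), a rise of 6.56-fold (95% confidence interval 4.67 to 9.23, adjusted p = 0.0024). Only 74 of the 18318 tested genes had a larger fitted rise.

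Hoxb9, its 5′ neighbour and a member of the posterior groups, had 70 and 60 scaled reads at 4 months against 272 and 337.5 at 24 months. The groups did not overlap, and the rise was 4.65-fold (3.1 to 6.96, adjusted p = 0.00802). In FPKM, Hoxb8 went from a mean of 0.832 to 5.48, so that in old cells it stood beside Hoxb4 (5.7) and Hoxb6 (5.43), whereas Hoxb9 reached 2.26 from 0.482. The calls of both genes ended when either old replicate was left out, where the remaining old sample was assumed to vary like the others, with adjusted p of 0.124 and 0.158 for Hoxb8 and 0.133 and 0.202 for Hoxb9, while the log2 fold changes stayed at 2.82 and 2.61 for Hoxb8 and at 2.37 and 2.06 for Hoxb9. They ended also without the filter on low values (0.0551 and 0.0777), and in these 3 settings limma called 0 of all genes tested, with 3669 (without old 13), 1933 (without old 14) and 2943 (no filter) at an unadjusted p under 0.05.

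The other tested Hoxb genes were higher in old cells in value but did not pass the threshold over all genes. Hoxb7, which lies 1.32 kb 3′ of Hoxb8, had 31 and 33.5 scaled reads at 4 months against 73.5 and 92.5 at 24 months, a ratio of 2.54 (1.55 to 4.15, adjusted p = 0.080). Hoxb6 had 212.5 and 106.5 at 4 months against 440 and 277 at 24 months (ratio 2.32, adjusted p = 0.195). For both genes each old replicate exceeded each young one, but young replicate 14 of Hoxb6 lay 0.99 below young replicate 13 on the log2 scale, and old replicate 14 lay 0.67 below old replicate 13, against a fitted age difference of 1.21.

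Hoxb5 had 521 and 393.5 scaled reads at 4 months against 711.5 and 767 at 24 months, a ratio of 1.63 with adjusted p = 0.148. Hoxb2, best known from hindbrain patterning, had 546 and 416.5 against 751 and 752, a ratio of 1.58 with adjusted p = 0.165. Hoxb3, which acts redundantly with other Hox genes in blood, had 1331.5 and 1054 against 1969 and 1570, a ratio of 1.48 with adjusted p = 0.219. In all 3 genes the old replicates lay above the young ones without overlap. The fold changes were smaller than those of Hoxb8 and Hoxb9, and the levels were higher.

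Hoxb4 stood apart from its neighbours in value. It had 821 and 572.5 scaled reads at 4 months against 842 and 618.5 at 24 months. The ages overlapped, the ratio was 1.05 (0.71 to 1.56, adjusted p = 0.935), and the 2 replicates of each age differed more than the ages. Its sign was not stable: the log2 fold change was −0.19 without young replicate 14 and −0.15 without old replicate 13. Hoxb1 and Hoxb13, at the ends of the cluster, stayed at no more than 7 scaled reads in any library and were not tested.

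**Figure D1:**
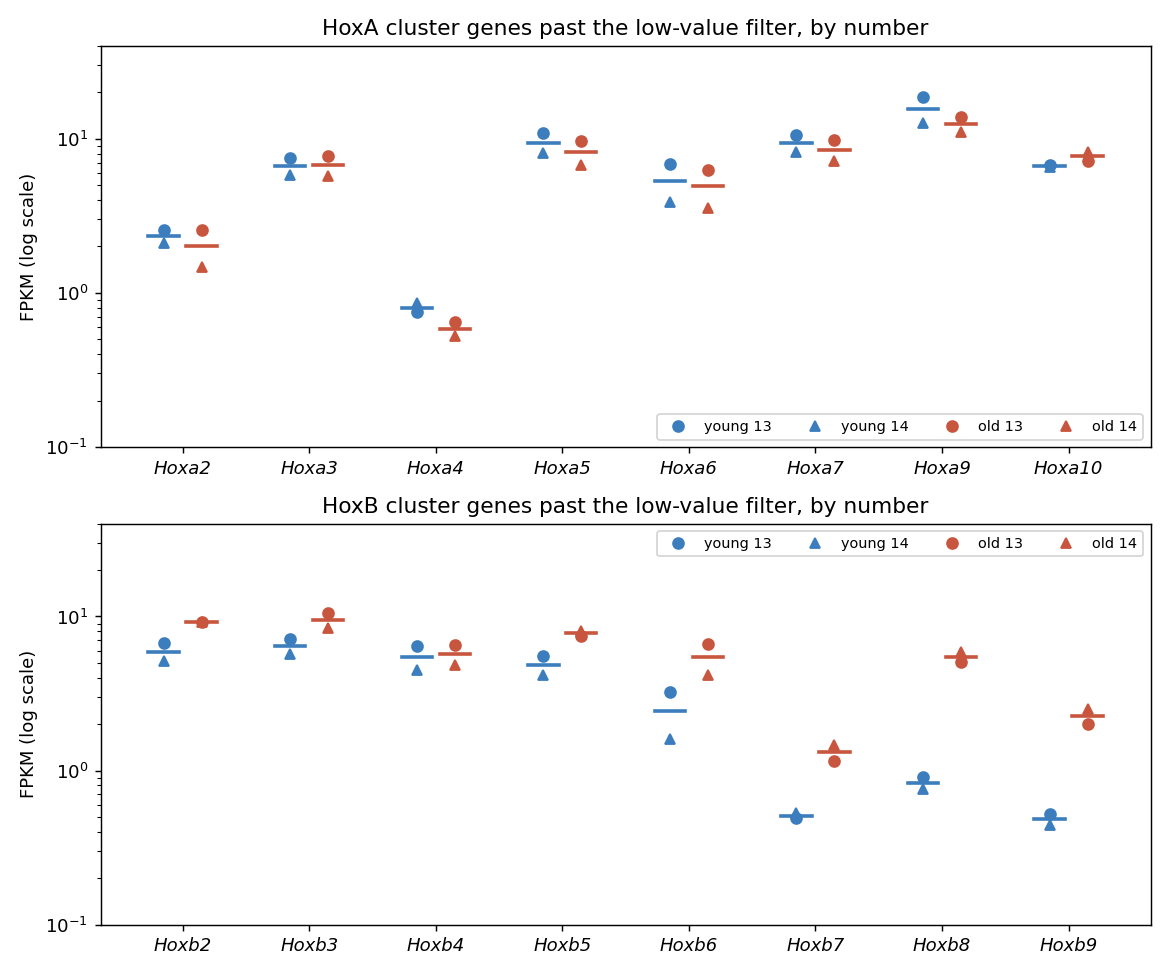
FPKM on a log axis of HoxA genes (upper panel) and HoxB genes (lower panel) past the filter and named in the text, with circles for replicate 13, triangles for replicate 14, blue for young, red for old, and bars at the mean of each age. The Hoxb8 values sit at 0.904 and 0.76 at 4 months and at 5.08 and 5.87 at 24 months, whereas the HoxA points of both ages lie close together.

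The HoxA cluster, on the minus strand of chromosome 6, gave no call in either direction, and none of its genes had an unadjusted p under 0.05. Of its tested genes 7 had a log2 fold change below 0 and 2 above, and the median was −0.20. Hoxa9, the most highly expressed Hox gene at both ages, had 2126 and 1432.5 scaled reads at 4 months against 1567.5 and 1257.5 at 24 months. The ages overlapped, and the ratio was 0.805 (0.559 to 1.16, adjusted p = 0.631).

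Hoxa10, its 5′ neighbour and a regulator of myeloid progenitors, had 1066 and 1025.5 scaled reads at 4 months against 1123.5 and 1284.5 at 24 months. Both old values lay above both young ones, and the ratio was 1.15 with adjusted p = 0.661. Its model overlaps an unnamed model on the other strand, HAG_032762, and whether the reads were counted by strand is not given in the sources used here.

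Hoxa7 had 1036.5 and 794.5 scaled reads at 4 months against 951 and 697 at 24 months. Hoxa5 had 1014.5 and 755.5 against 911 and 635. Hoxa3 had 957 and 734.5 against 975.5 and 727, a ratio of 1. These 3 genes overlapped between ages, with adjusted p of 0.830, 0.787 and 0.996.

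Hoxa6 had 238 and 135 scaled reads at 4 months against 218.5 and 124.5 at 24 months, and Hoxa2 had 214.5 and 177.5 against 213.5 and 123. Both overlapped between ages, with adjusted p of 0.933 and 0.787. Hoxa4 had 57 and 65.5 scaled reads at 4 months against 49.5 and 40 at 24 months. Both old values lay below both young ones, with a ratio of 0.731 and adjusted p = 0.608. The Hoxa3 model spans those of Hoxa4, Hoxa5 and Hoxa6, so reads of these genes may have been split between rows.

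Replicate 14 was lower than replicate 13 at both ages for 7 of the 9 tested HoxA genes (77.8%), for Hoxb3, Hoxb4 and Hoxb6, and for 15 of the 27 tested members in all. Over all genes tested this share was 37.5%. The summed scaled reads of 8 neutrophil genes were 13771 and 51126 at 4 months and 13224 and 26595 at 24 months (replicates 13 and 14), so they too differed by replicate number. The part of those cells in the Hox values was not tested. Between replicates of one age the tested members differed by a median of 0.33 on the log2 scale, and between technical libraries of one replicate by 0.11.

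HoxC and HoxD were close to silent. In HoxC (chromosome 15), Hoxc6 had 46 and 49 scaled reads at 4 months against 59.5 and 54.5 at 24 months. Hoxc4 had 10 and 5 against 25.5 and 13.5, a ratio of 2.51 with an interval of 1.04 to 6.05 and adjusted p = 0.328. Hoxc5 had 11 and 7.5 against 15 and 9. Hoxc6 and Hoxc4 did not overlap between ages and Hoxc5 did, and none passed the threshold. The other 6 HoxC genes (Hoxc8 to Hoxc13) reached at most 10 scaled reads in any library.

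None of the 9 HoxD genes (chromosome 2) passed the filter. Hoxd4, Hoxd8 and Hoxd10 reached between 2 and 3 scaled reads in a library, and Hoxd1, Hoxd3, Hoxd9, Hoxd11, Hoxd12 and Hoxd13 were at 0 in every library. In the posterior part of HoxA, Hoxa11 and Hoxa13 also stayed at or under 3 scaled reads. No group 11, 12 or 13 gene of any cluster was tested.

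Read by paralogue group, which joins the genes of the same number in different clusters, the leading gene alternated between HoxA and HoxB. HoxB genes led groups 2, 3, 4 and 8, and HoxA genes led groups 5, 6, 7, 9 and 10, by mean FPKM over the 4 replicates. In 2 of these groups the order of the means differed by age: Hoxa3 (6.67) stood above Hoxb3 (6.42) in young cells and below it in old cells (6.71 and 9.52), and Hoxa6 (5.35) stood above Hoxb6 (2.42) in young cells and below it in old cells (4.92 and 5.43). Paralogues share the homeobox, and how reads that match several of them were counted is not given in the sources used here. In group 8 there is no HoxA gene, and Hoxb8 was the only member expressed above the filter. The summed FPKM of group 8 was 0.863 in young and 5.5 in old cells. In group 9, Hoxa9 held most of the signal, so the group's sum was 16.2 in young and 14.8 in old cells although Hoxb9 rose.

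Within HoxB the fold change was larger for higher gene numbers, that is, toward the 5′ end. Over the 8 tested genes, Pearson's r between number and log2 fold change was 0.85 and Spearman's rho was 0.88. The same description over the 9 tested HoxA genes gave 0.55 and 0.50. These are correlations across genes that share the same 4 replicates, so no p is given. In HoxB, the log2 fold change also went with the young level (r = −0.83 with log2 FPKM), so the genes with the largest fold changes tended to have the lowest levels in young cells. In HoxA the same correlation was 0.63. The young level is itself part of the fold change, so the 2 are not independent.

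**Figure D2:**
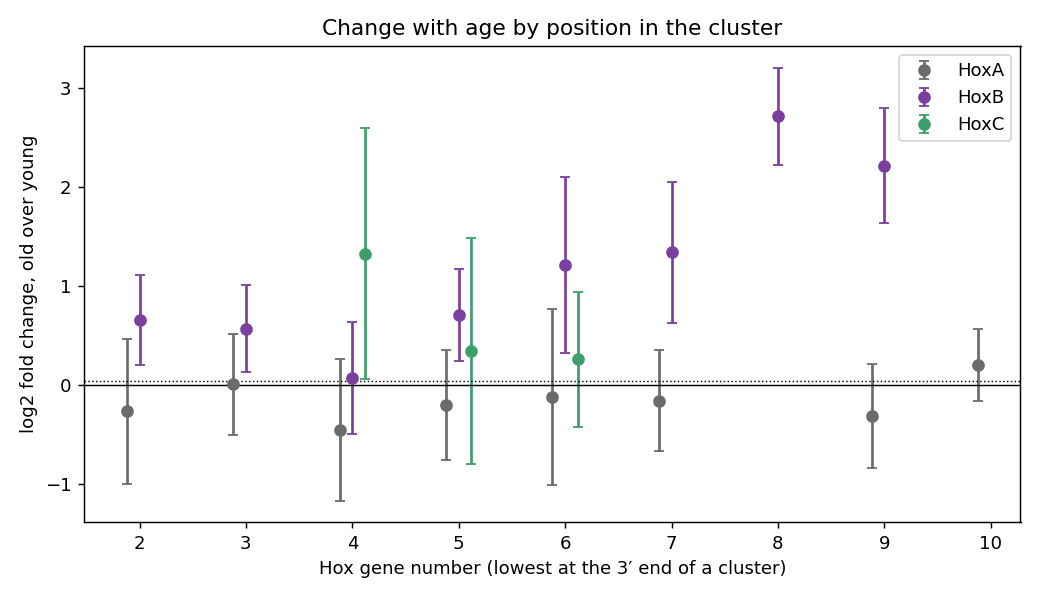
Log2 fold change, old over young, against gene number for the genes of HoxA (grey), HoxB (purple) and HoxC (green) that were tested and are named in the text, with 95% limma confidence intervals, a solid line at 0 and a dotted line at 0.04, the median of all genes tested. The HoxB points for Hoxb8 and Hoxb9 are highest at 2.71 and 2.22, and the HoxA intervals drawn all include 0.

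Summed per length, HoxA stood above HoxB in every young replicate (64.9 against 30.9 FPKM in replicate 13, 48.2 against 22.8 in replicate 14), while old replicate 14 had 44.7 for HoxA and 44.7 for HoxB. HoxA made up 67.1% and 67.2% of the summed Hox FPKM at 4 months (replicates 13 and 14) and 53.5% and 49.4% at 24 months. HoxB made up 32% and 31.7% at 4 months and 45.3% and 49.5% at 24 months. Neither share overlapped between ages. The ratio of HoxB to HoxA was 0.476 and 0.472 at 4 months, against 0.846 and 1 at 24 months, a description given without a test.

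The 4 genes from Hoxb6 to Hoxb9 summed to 5.13 and 3.35 FPKM at 4 months and to 14.9 and 14 at 24 months. Hoxb1 to Hoxb5 summed to 25.8 and 19.4 at 4 months and to 34 and 30.6 at 24 months. Both sums were higher in old cells without overlap, and the ratio between them was 0.199 and 0.172 at 4 months, against 0.44 and 0.458 at 24 months. The total over all Hox genes reached 96.8 and 71.8 FPKM at 4 months and 108 and 90.3 at 24 months, and the ages overlapped.

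**Figure D3:**
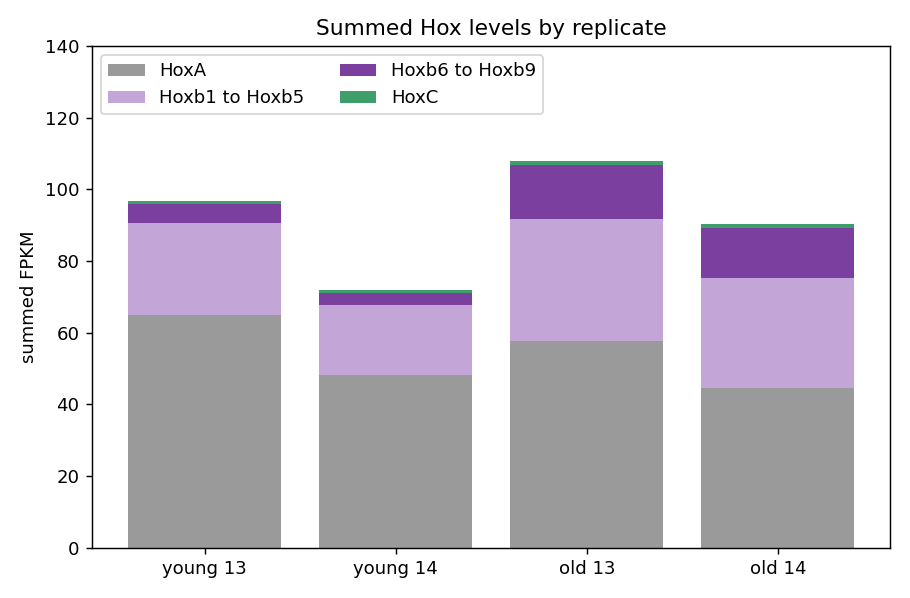
Summed FPKM of Hox genes in each biological replicate, stacked as HoxA, Hoxb1 to Hoxb5, Hoxb6 to Hoxb9 and HoxC, with HoxD too small to draw. The dark purple part, Hoxb6 to Hoxb9, measures 5.13 and 3.35 at 4 months against 14.9 and 14 at 24 months, while the grey HoxA part overlaps between ages.

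Among the cofactors, Pbx3 was called, and Meis1, the most abundant, was not. Pbx3, a Pbx gene often expressed with Hoxa9 and Meis1 in leukemia, had 880.5 and 942 scaled reads at 4 months against 1912 and 2099 at 24 months. The old replicates were above the young ones without overlap and close to each other. The rise was 2.2-fold (1.73 to 2.8, adjusted p = 0.0134), from a mean FPKM of 7.64 to 16.8. The call ended when any of the 4 replicates was left out, with adjusted p of 0.0913, 0.0854, 0.130 and 0.198 without young 13, young 14, old 13 and old 14, and without the filter on low values (0.0859).

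Pbx2, the broadly expressed member of the family, had 3568 and 3561 scaled reads at 4 months against 3226 and 3519 at 24 months, both old values below both young ones, with a ratio of 0.945 with an interval of 0.756 to 1.18. Pbx4 had 626.5 and 444 against 519 and 328.5, with overlap between ages, a ratio of 0.783 and adjusted p = 0.673.

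Meis1, which is required for HSC maintenance, had the highest FPKM of all members and gave no call. It had 15321.5 and 13800 scaled reads at 4 months against 16092.5 and 15171.5 at 24 months. The ages overlapped and the ratio was 1.07 (0.83 to 1.39, adjusted p = 0.846). In mean FPKM over the replicates, Meis1 (88.1) stood above Pbx2 (24.8), Pbx3 (12.2), Pbx4 (7.16), Meis3 (3.49) and Meis2 (0.477), in this order. In old cells Pbx3 and Pbx2 were nearer to each other (16.8 and 24.2) than in young cells (7.64 and 25.5).

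The 2 less abundant Meis genes were higher in old cells in value without passing the threshold. Meis3 had 238 and 160 scaled reads at 4 months against 433 and 403.5 at 24 months, a ratio of 2.14 (1.43 to 3.19, adjusted p = 0.0786). Meis2 had 77 and 77.5 against 126 and 221, a ratio of 2.15 (1.27 to 3.64, adjusted p = 0.165). Neither overlapped between ages. The 2 old values of Meis2 differed from each other by 0.81 on the log2 scale, while its young values were nearly equal. Against Meis1, the FPKM of Meis3 was 0.0301 and 0.0225 at 4 months and 0.0522 and 0.0516 at 24 months, so Meis1 remained the main Meis gene at both ages.

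**Figure D4:**
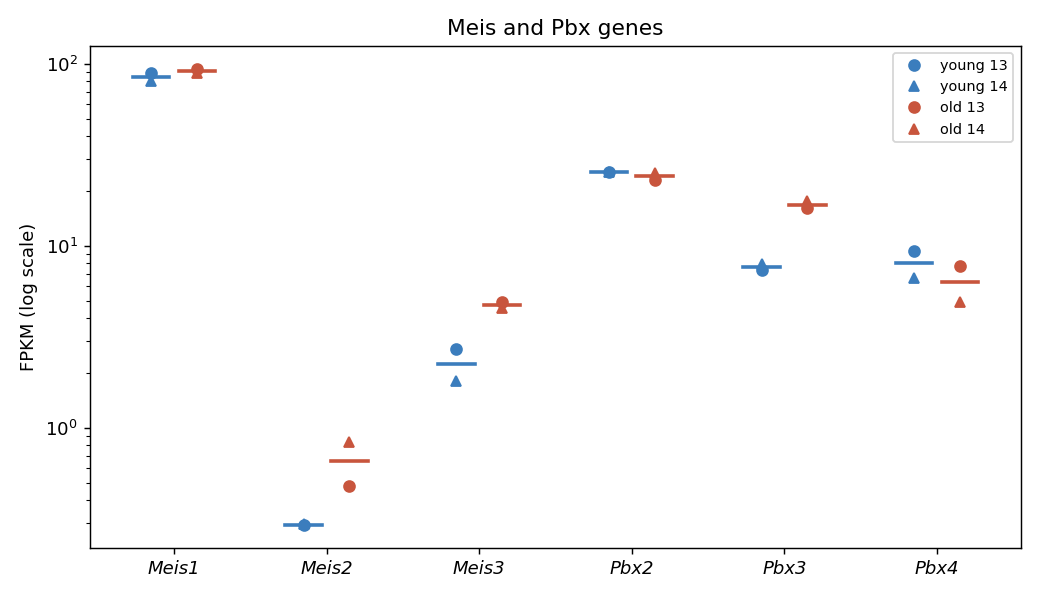
FPKM on a log axis of the Meis genes and of Pbx2, Pbx3 and Pbx4, with circles for replicate 13, triangles for replicate 14, blue for young, red for old, and bars at the mean of each age. Pbx3 goes from a mean of 7.64 to 16.8 with no overlap between ages, while Meis1 stays near 88.1.

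The authors' deposited table, whose false discovery rates come from their own model, marks 10 members as higher in old cells (among them Hoxb2, Hoxb3, Hoxb5 to Hoxb9, Meis3 and Pbx3) and 2 as lower (Hoxa9 and Pbx4). In the authors' deposited table the log2 fold change is 2.69 for Hoxb8 and 1.11 for Pbx3, close in size to 2.71 and 1.14 here. For Hoxa9 the authors' deposited table gives −0.36 with a false discovery rate of 0.0178, and here the value was −0.31 with adjusted p = 0.631. The authors' deposited table marks 1338 genes higher and 1297 lower, against 368 and 99 called here. Its marks do not rest on the false discovery rate alone, since Meis2 (log2 fold change 1.13, false discovery rate 6.39e-08) has none. The 2 pairs of counts therefore follow unlike rules.

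Of 23 non-coding and unnamed models inside the clusters or within 5 kb of their ends, 5 were tested. None was called and none had an unadjusted p under 0.05. In HoxA, Mira had 700.5 and 674.5 scaled reads at 4 months against 747.5 and 658 at 24 months. The model 2700086A05Rik, which overlaps Hoxa3, Hoxa5 and Hoxa6 on the other strand, had 173.5 and 90 against 125 and 84.5. In HoxB, Gm11539 had 191 and 145 against 194 and 179, and HNG_007122 had 156.5 and 115.5 against 162 and 135.5. Gm11539 and HNG_007122 share positions on opposite strands, so the same reads may stand in both rows. All 4 models overlapped between ages. Among the untested HoxB models, HNG_007121 had 0.5 and 1 against 10 and 6, and HNG_007124 had 8 and 3 against 2 and 1.5.

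Of the genes beside the clusters, 14 of 18 were tested and none was called. An unadjusted p under 0.05 was found for 1, Skap1, against 2573 of 18318 genes tested. Skap1, a T cell adaptor gene, lies 96.3 kb from the 3′ end of HoxB. It had 29 and 59 scaled reads at 4 months against 145 and 177.5 at 24 months (ratio 3.84, adjusted p = 0.0536). Both old values of Skap1 lay above both young ones, as in 24.7% of all genes tested, and Skap1 did not pass the threshold. Snx10, 565 kb from HoxA, and Cbx1, on the HoxB side, had log2 fold changes of 0.25 and −0.19, with adjusted p of 0.630 and 0.641. The median over the 14 genes was 0.08.

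Of the MLL-side regulators, whose complexes keep Hox genes active, 17 of 20 were tested and none was called. An unadjusted p under 0.05 was found for 2, against 2573 of 18318 genes tested. Values below 0 were found for 15, and the median was −0.10 on the log2 scale. Of all genes tested, 56.5% lay above 0, with a median of 0.04. Among the regulators, the smallest p belonged to Mllt3, an HSC factor (log2 fold change 0.59, adjusted p = 0.107). Next came Dot1l, the H3K79 methyltransferase (−0.66, adjusted p = 0.272), and Brpf1 (−0.43, adjusted p = 0.474). Cdx1, Cdx2 and Cdx4, which activate Hox genes in embryos, were at 0 in all libraries. Of other TALE genes and Hox partners, 5 of 13 were tested, none was called, and 1 (Gmnn) had an unadjusted p under 0.05. Gmnn, which encodes the Hox-binding protein geminin, Pknox1 and Tgif1 had log2 fold changes of −0.39, −0.22 and 0.09, with adjusted p of 0.280, 0.562 and 0.878.

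Of reported targets of Hoxa9 or Meis1, 19 of 20 were tested, and 2 were called higher and 3 lower, against 2.01% and 0.54% of all genes tested. By limma's unadjusted p under 0.05, 10 of the 19 differed, against 2573 of 18318 genes. The median log2 fold change was 0.06, with values on both sides of 0. Epas1 had 267 and 208.5 scaled reads at 4 months against 637.5 and 598 at 24 months (log2 fold change 1.39, adjusted p = 0.0199), and Dlk1 had 254.5 and 197 against 550 and 886.5 (1.64, adjusted p = 0.0309). Flt3, a receptor of multipotent progenitors, had 2193.5 and 2198 against 653.5 and 803.5 (−1.60, adjusted p = 0.00558). Igf1 had 291.5 and 316 against 88 and 111 (−1.61, adjusted p = 0.0195), and Cd34 had 13362.5 and 14475.5 against 6370.5 and 8239.5 (−0.94, adjusted p = 0.0456). The 5 called targets moved in both directions, and Hoxa9 and Meis1 themselves gave no call. Any link between the targets and these 2 genes was not tested.

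Promoter windows of 300 bases around the start site, most of them before it, were present in RefSeq (GRCm38.p6) for 27 members, 15 of them tested. Those of Hoxb8, which rose, of Hoxb4, which did not change past the threshold in the same cluster, and of Hoxa9, the leading HoxA gene, are shown from 5′ to 3′ on the gene's strand. Capitals mark the motif TGATNNAT, a Pbx and Hox half-site pair searched on both strands, which in Hoxb8 was found on the reverse strand. The windows are chr11:96281655-96281954 (plus) for Hoxb8, chr11:96318017-96318316 (plus) for Hoxb4 and chr6:52227321-52227620 (minus) for Hoxa9.
Hoxb8 promoter: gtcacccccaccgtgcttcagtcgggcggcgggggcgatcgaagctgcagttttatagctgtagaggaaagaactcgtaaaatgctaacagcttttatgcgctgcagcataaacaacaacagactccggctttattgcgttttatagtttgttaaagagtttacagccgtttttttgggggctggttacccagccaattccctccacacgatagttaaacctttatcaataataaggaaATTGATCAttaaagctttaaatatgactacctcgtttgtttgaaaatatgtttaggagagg
Hoxb4 promoter: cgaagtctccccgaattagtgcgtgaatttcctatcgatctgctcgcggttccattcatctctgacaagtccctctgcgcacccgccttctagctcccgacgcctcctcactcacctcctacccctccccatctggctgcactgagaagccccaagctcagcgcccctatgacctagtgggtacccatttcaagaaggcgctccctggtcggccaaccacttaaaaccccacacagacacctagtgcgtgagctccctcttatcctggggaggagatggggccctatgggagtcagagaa
Hoxa9 promoter: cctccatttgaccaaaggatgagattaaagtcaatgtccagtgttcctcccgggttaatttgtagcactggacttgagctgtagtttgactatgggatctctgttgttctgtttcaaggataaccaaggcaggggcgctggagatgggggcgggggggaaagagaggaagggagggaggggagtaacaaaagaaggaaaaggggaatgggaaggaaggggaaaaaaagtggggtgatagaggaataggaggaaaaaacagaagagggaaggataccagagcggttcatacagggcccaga

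TGATNNAT occurred in the promoters of 4 members (Hoxa2, Hoxb1, Hoxb8 and Hoxd11) and in 8.85% of 32851 promoters. The Meis motif TGACAG, searched on both strands, occurred in Hoxa2 and Hoxa3 and in 19.2% of promoters, and both motifs begin with TGA. The Hoxb8 window held 13 CG pairs, that of Hoxb4 held 14 and that of Hoxa9 held 4, against a median of 15 over the 29 member windows and 7 over all promoters. These are letters in a window and were not tested for binding.

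The 8 libraries held an estimated 22300000 to 66500000 reads each and 40741343 to 44223102 scaled reads. The 8 HSC markers were all expressed, with sums of 127820 and 122640 scaled reads at 4 months and 140730 and 155190 at 24 months, and Slamf1 (CD150, a sort marker) and Procr were called higher. Of the other marker lists, 5 of 9 erythroid rows and 2 of 6 stromal genes were called lower, against 0.54% of all genes tested. The 9 rows stand for 8 erythroid genes, since Hba-a1 fills more than 1 row. Vwf, Kdr and Klrb1c, 1 gene each of the megakaryocyte, endothelial, and T and NK cell lists, were called higher, against 2.01% of all genes tested. Other genes of these 3 lists were not called, and some had a ratio below 1, such as Nkg7 (ratio 0.5, adjusted p = 0.149) and Cdh5 (ratio 0.418, adjusted p = 0.224). The erythroid markers, summed over the 9 rows, reached 8018.5 and 7343 at 4 months and 3749.5 and 4004.5 at 24 months. The megakaryocyte markers summed to 28168 and 35677 at 4 months and 55102 and 62996 at 24 months, and without Vwf to 17178.5 and 21771 against 20042.5 and 22267.5, which overlapped. The neutrophil list had no call, but 7 of its 8 genes lay below 0, 4 had an unadjusted p under 0.05 and the median log2 fold change was −2.61. The B cell, monocyte and mast cell lists had no call. Mast cell markers summed to 673.5 and 5328.5 at 4 months (replicates 13 and 14) and to 1257.5 and 1785.5 at 24 months. Monocyte markers summed to 6114.5 and 10560 against 7939.5 and 12804, and B cell markers to 1123.5 and 1156.5 against 1256 and 1232. No gene of these lists that matched a row was at 0 in all libraries, and the part of such cells in the Hox, Meis and Pbx values was not tested.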

How the data were processed

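RNA-seq of 8 libraries (2 ages, 2 biological replicates, 2 technical libraries each) was read from the series' gene table. Per the labels, libraries were made from polyA-selected RNA with TruSeq RNA kits. The submitters' processing notes name mm9 and DESeq, with no role; the sources used here give no aligner or counter. The deposited values are a score, read counts multiplied by 1 factor per library and rounded (factors estimated here, 0.617 to 1.8389), and FPKM by the authors, which keeps 1 ratio to the score per gene in all libraries within 0.1%. The authors' deposited table also holds log2 fold changes and p-values with false discovery rates, quoted only where named.

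Technical pairs were averaged. Genes with at least 10 scaled reads in at least 2 replicates were tested (18318) with limma 3.58.1 in R 4.3.3 on log2(scaled value + 0.5), age as the only term, trended empirical Bayes, two-sided, Benjamini-Hochberg over all genes tested, called at adjusted p under 0.05; a log2 fold change on this scale understates the change of low genes. Count models were not used because the values are scaled. The limma procedure and the estimate of the library factors were each tested on simulated data. Intervals are 95% limma intervals. The members and all gene lists were chosen with earlier results of these data known. Tested members are named, apart from some results not reported here; from each pathway list, the 3 genes with the smallest p and any called gene are named. Marker lists covered HSC, neutrophil, erythroid, megakaryocyte, B cell, T and NK cell, monocyte, stromal, endothelial and mast cell genes. Alternatives covered the pseudocount, the filter, scaling, limma-voom, single technical libraries, a replicate block and leaving out each replicate. 3′ untranslated regions came from GENCODE M21 and promoters and microRNAs from RefSeq, both on GRCm38; gene positions are the files' mm9.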

Additional observations from a re-analysis of the deposited data

How the results depend on the processing

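The count of members called higher, 3 as reported, was 0 without the filter on low values, 12 with a replicate block and 0 to 2 when leaving out each replicate in turn; the count called lower was 0 in every setting, limma-voom included. Over all genes, the 368 called higher became 0 without the filter, 237 with a mean FPKM of at least 1, 242 with the lower-numbered technical library, 1698 with the block and 0 to 206 when leaving out a replicate. The 99 called lower became 0, 65, 51 (52 with the higher-numbered library), 1068 and 0 to 68. Pathway genes called higher, 2, became 0 without the filter, 1 with the higher-numbered library, 6 with the block and 0 to 2 when leaving out a replicate; those called lower, 3, became 0 without the filter, 1 with FPKM of at least 1, 8 with the block and 0 to 1. Where members had 0 calls higher, 11 (no filter), 8 (without old 13) and 9 (without old 14) still had an unadjusted p under 0.05. Leaving out a replicate tests fewer samples. Apart from these, the cause was not tested.

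The replicate numbers pair only 2 samples per age. Deviations of replicate 13 from its age mean correlated at 0.544 between ages over 18318 genes, and the replicate block gave the counts above. Beyond Hoxb8, Hoxb9 and Pbx3, the members called with the block included Hoxb2, Hoxb3, Hoxb5, Hoxb6, Hoxb7, Hoxc4, Meis2 and Meis3, with adjusted p from 5.92e-05 (Hoxb6) to 0.0252 (Hoxc4).

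Signs turned only for members that were not called. Leaving out each replicate in turn gave log2 fold changes of −0.66 to 0.13 for Hoxa2, −0.21 to 0.22 for Hoxa3, −0.46 to 0.057 for Hoxa5, −0.53 to 0.29 for Hoxa6, −0.38 to 0.068 for Hoxa7, −0.19 to 0.33 for Hoxb4 and −0.014 to 0.69 for Hoxc5. Hoxa3 was also −0.040 with median-ratio factors, −0.042 with quantile normalization, −0.030 with limma-voom and −0.0026 with the lower-numbered technical library, where Hoxb4 was −0.056.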
